A study of Mus musculus with 12 samples.

Results

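Amh, Inha, Inhba, Inhbb, Nppc, Kitl, Fshr, Npr2, Foxl2 and Cyp19a1 are transcripts known from the granulosa and cumulus cells of the ovarian follicle, and they were followed here in RNA-Seq libraries made from mouse oocytes. They were taken by gene symbol from a table of 24562 genes, in which all 10 were listed once, and all 10 passed the filter on low counts that left 13943 genes for testing. Mice of the CD-1 strain were used at postnatal day (PND) 13, 16 and 40 without hormone stimulation, the oocytes were taken from antral follicles, and the PND 16 mice were divided by body weight into small and large. Each of these 4 cohorts had 3 pools of 18 to 45 oocytes, 12 pools in all, and no allele or agent set the cohorts apart. Cumulus cells were removed by pipetting in medium that held milrinone, an inhibitor of meiotic resumption, and the oocytes still had an intact germinal vesicle. PND 16 large and PND 40 oocytes are called competent to resume meiosis here, and PND 13 and PND 16 small oocytes non-competent. The 3 pools of a cohort were made as independent pools from the oocytes of 3 mice, and whether each pool held the oocytes of 1 mouse is not given in the sources used here, so p-values measure the spread between pools.

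Granulosa cells surround the oocyte and become, when the antrum forms, the mural cells of the follicle wall and the cumulus cells around the oocyte. They signal to the oocyte and to the pituitary: anti-Müllerian hormone restrains follicle growth, inhibin lowers and activin raises the release of follicle-stimulating hormone (FSH), and KIT ligand binds a receptor on the oocyte. C-type natriuretic peptide from mural cells acts on its receptor in cumulus cells, and the cyclic GMP made there reaches the oocyte through gap junctions and holds it in meiotic arrest.

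The oocyte identity of the pools was checked first. The summed level of 12 oocyte transcripts, among them Gdf9, Zp3 and Dppa3, lay between 15708 and 20236 CPM in all pools, a 1.29-fold range. CPM are counts relative to the total count of a pool, here scaled between pools with the trimmed mean of M-values (TMM). Total counts ranged from 17671193 to 27418358 per pool. The 10 members together took from 0.00424% to 0.0400% of these counts.

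PND 13 replicates 1 and 3 and PND 16 small replicate 2 stood apart from the other 9 pools. The summed CPM of the members was 286, 41.0 and 346 in PND 13 replicates 1, 2 and 3, and 58.6, 405 and 114 in the PND 16 small pools. It was 81.5, 78.8 and 86.1 in the PND 16 large pools and 60.3, 73.7 and 62.5 in the PND 40 pools. Thus the lowest pool and the second-highest pool both belonged to PND 13, and the range over the 12 pools was 9.87-fold. The means were 224 ± 162 (SD, n = 3) at PND 13, 193 ± 186 in PND 16 small, 82.1 ± 3.66 in PND 16 large and 65.5 ± 7.15 at PND 40. These 3 pools held the 3 highest values for 7 of the 10 members, all but Nppc, Kitl and Cyp19a1. Of all genes tested, 4.44% had their 3 highest values in these pools, which were singled out after the values were seen. In pooled RNA, fewer follicle cells and less RNA per cell cannot be told apart.

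**Figure D1:**
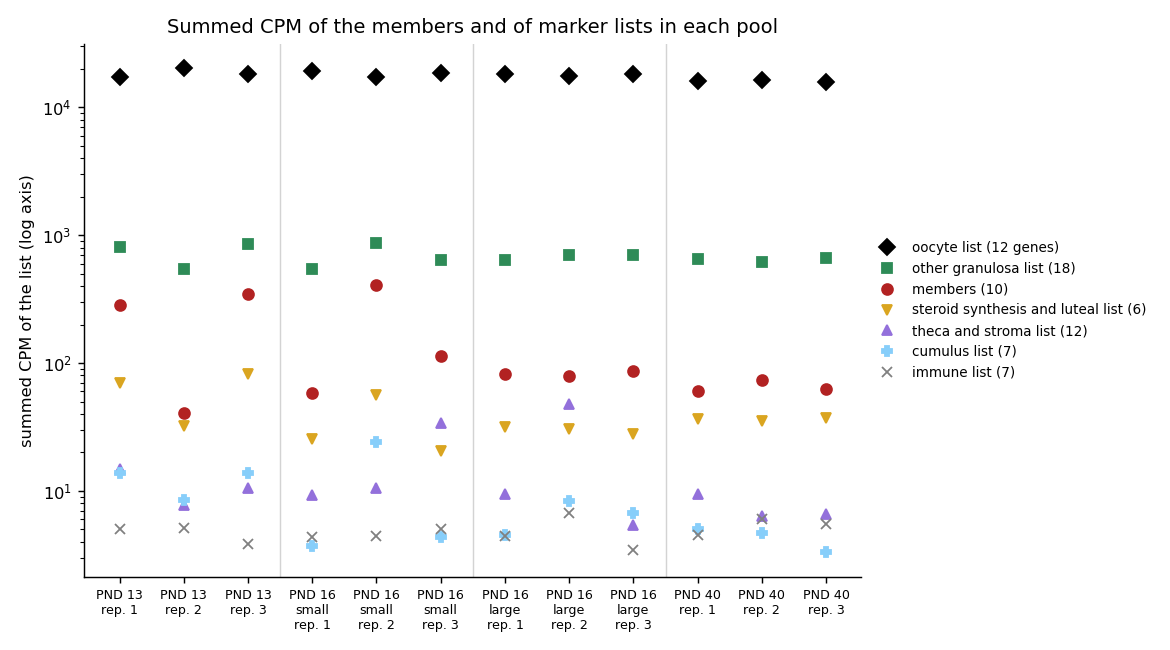
Summed CPM (log axis) of the 10 members and of marker lists in each of the 12 pools, with 1 point per list and pool and grey lines between cohorts. The members range from 41.0 to 405 CPM and are highest in PND 13 replicates 1 and 3 and PND 16 small replicate 2, whereas the oocyte list stays between 15708 and 20236 CPM.

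Markers of the cell types that could have come with the oocytes were read in the same pools. Of 18 other granulosa cell genes, 11 had their 3 highest pools in the same PND 13 and PND 16 small pools, among them Fst, Gja1, Nr5a1, Amhr2, Wt1, Hsd17b1, Ihh, Bex2, Vcan and Kctd14. Gja1, the connexin of granulosa cell gap junctions, was at 93.2, 1.37 and 109 CPM at PND 13 and at 2.58, 128 and 13.6 CPM in PND 16 small. The other 7 (Nr5a2, Esr2, Gata4, Grb14, Slc18a2, Serpine2 and Gatm) did not share that order, and Serpine2, for instance, ranged from 199 to 270 CPM at PND 13. The summed CPM of these 18 genes ranged from 540 to 853 at PND 13, from 547 to 864 in PND 16 small, from 638 to 699.9 in PND 16 large and from 619 to 666 at PND 40. Genes that did not share that order weigh heavily in these sums. In PND 13 replicate 2, the lowest sum, Serpine2, Nr5a2, Esr2 and Gata4 were at 270, 87.9, 87.2 and 61.1 CPM, and Gja1 and Vcan at 1.37 and 1.45 CPM.

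The other lists behaved differently. In the list of 7 cumulus genes, Ptx3 and Tnfaip6, genes of the expanding cumulus, were at 0 in 11 and 9 of 12 pools. The summed cumulus level ranged from 8.48 to 13.8 CPM at PND 13, from 3.69 to 24.4 in PND 16 small, from 4.54 to 8.33 in PND 16 large and from 3.31 to 5.06 at PND 40. Of 6 genes of steroid synthesis and luteal cells, Hsd3b1 alone had its 3 highest values in the same 3 pools, and their sums ranged over the same cohorts from 32.2 to 81.7, 20.6 to 56.4, 27.9 to 31.7 and 35.5 to 37.0 CPM. No gene of the theca and stroma (12 genes), immune (7), red blood cell (5), surface epithelium (5) or oocyte (12) lists had its 3 highest values there, and of 5 endothelial genes 1 did, Cdh5, a cadherin of endothelial junctions that was below the filter on low counts (0.0819 to 0.143 CPM in these pools). The theca and stroma sum was highest in PND 16 large replicate 2 (47.7 CPM) and PND 16 small replicate 3 (33.8 CPM). Of this list, Col1a1, Col1a2 and Col3a1 were at 17.8, 14.2 and 8.44 CPM in PND 16 large replicate 2. Their next-highest values were those of PND 16 small replicate 3. Cyp17a1 and Insl3 of the same list reached at most 0.246 and 0.0395 CPM. Red blood cell genes summed to at most 0.427 CPM. The sums of the 3 remaining somatic lists ranged over all pools from 85.2 to 107 CPM (endothelial), from 3.46 to 6.71 (immune) and from 2.02 to 6.02 (epithelium). What part the carried-over cells had in the members' levels was not tested.

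The reference positions of the members are those of GENCODE M21 on GRCm38. Inha (chr1:75507077-75510366, plus strand), Inhbb (chr1:119415465-119422248, minus strand) and Nppc (chr1:86666291-86670571, minus strand) lie on chromosome 1. Amh (chr10:80805243-80807648) and Kitl (chr10:100015630-100100416) lie on the plus strand of chromosome 10. Cyp19a1 (chr9:54165937-54268110, minus strand) and Foxl2 (chr9:98955288-98958543, plus strand) lie on chromosome 9. The others are Inhba (chr13:16011851-16031621, plus strand), Fshr (chr17:88984952-89200675, minus strand) and Npr2 (chr4:43631935-43651244, plus strand). An exon of Foxl2 shares 12 bases with Foxl2os on the opposite strand, which held 2 to 184 counts, and exons of Npr2 share 266 bases with the antisense gene Gm12473. Whether counting used the strand is not given in the sources used here.

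Because 7 members shared their highest pools and Kitl did not, the bases just before the start of transcription are shown for 4 of those members whose RefSeq start falls on the first base of the GENCODE gene, and for Kitl, whose RefSeq start lies 191 bases inside it. The sequences are RefSeq promoters on GRCm38.p6, cut to the 100 bases before the start and printed along the strand of the gene, and 9 of the 10 members (all but Amh) had at least 1. Capitals mark any match, on either strand, to TATAAA (the TATA box), AAGGTCA (a half-site of NR5A receptors), CGTCA (a half-site of the cyclic AMP response element) or GATAA (the core of GATA sites), and no matches to different motifs overlapped.
Inhba, chr13:16011751-16011850, plus strand: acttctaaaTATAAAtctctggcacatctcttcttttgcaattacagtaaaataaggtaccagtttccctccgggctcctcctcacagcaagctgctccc
Inhbb, chr1:119422249-119422348, minus strand: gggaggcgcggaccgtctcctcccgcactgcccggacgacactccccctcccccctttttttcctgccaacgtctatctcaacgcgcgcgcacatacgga
Npr2, chr4:43631835-43631934, plus strand: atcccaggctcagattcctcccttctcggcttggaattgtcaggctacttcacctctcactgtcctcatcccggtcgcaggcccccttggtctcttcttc
Fshr, chr17:89200676-89200775, minus strand: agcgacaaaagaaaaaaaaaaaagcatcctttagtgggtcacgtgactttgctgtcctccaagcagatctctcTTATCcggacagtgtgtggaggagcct
Kitl, chr10:100015721-100015820, plus strand: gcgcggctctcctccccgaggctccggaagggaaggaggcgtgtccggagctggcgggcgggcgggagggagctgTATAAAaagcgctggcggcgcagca
Inhba and Kitl held TATAAA, which was in 5.56% of the 32851 promoter windows of this length, and Fshr held GATAA on the opposite strand, which was in 8.55%. AAGGTCA (1.49% of windows) and CGTCA (10.5%) were in none of the windows shown. G and C made up 44% of the window of Inhba, 66% of Inhbb, 57% of Npr2, 46% of Fshr and 72% of Kitl.

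Levels of different members are compared per kilobase of annotated exon. Over the 12 pools the mean CPM per kilobase was highest for Inha (27.7), followed by Inhbb (7.13), Amh (6.88), Kitl (4.17), Cyp19a1 (4.06), Foxl2 (1.70), Inhba (0.919), Fshr (0.621), Npr2 (0.453) and Nppc (0.357). The order depended on the pools. At PND 40 Inha (8.21, range 7.74 to 8.96) was followed by Cyp19a1 (3.52, 3.28 to 3.76), Amh (2.87, 2.21 to 3.86), Inhbb (2.67, 2.10 to 3.24) and Kitl (2.14, 1.82 to 2.54) on this scale, and the ranges of neighbours from Cyp19a1 to Kitl overlapped. In PND 16 large, Inha was again first (13.7), before Cyp19a1 (range 4.49 to 5.37).

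**Figure D2:**
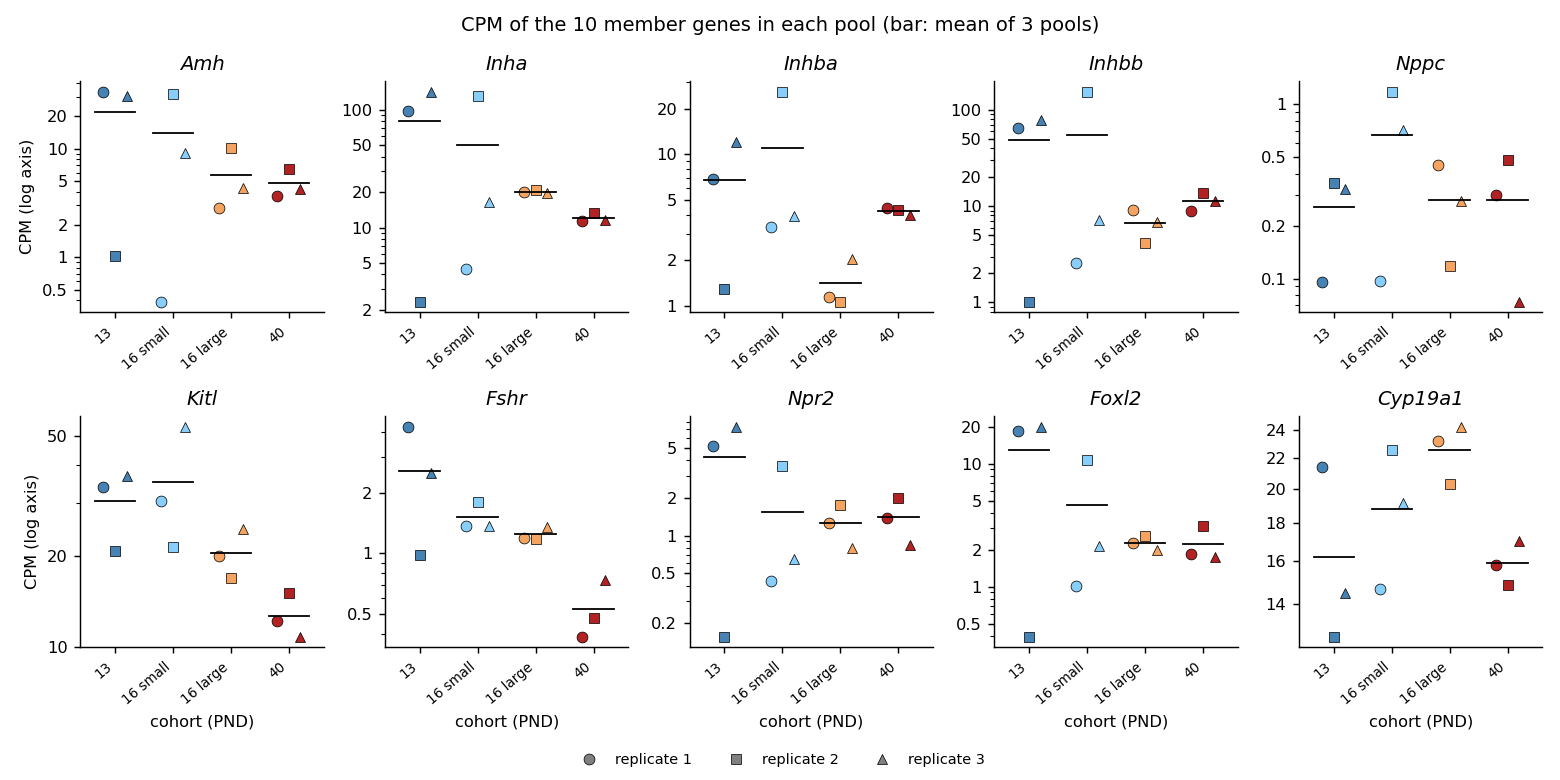
CPM (log axis, own scale per gene) of each member in every pool by cohort, with bars for the mean of 3 pools and symbols for the replicate number. PND 13 replicates 1 and 3 and PND 16 small replicate 2 hold the highest values of Amh, Inha, Inhba, Inhbb, Fshr, Npr2 and Foxl2, and the PND 40 pools hold the lowest values of Kitl and Fshr.

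Among the secreted hormones, Inha, the alpha subunit common to inhibins A and B, was at 97.1, 2.34 and 143 CPM at PND 13 and at 4.42, 130 and 16.5 CPM in PND 16 small. It was at 20.2, 20.7 and 19.7 CPM in PND 16 large and at 11.4, 13.2 and 11.7 CPM at PND 40. The PND 16 large and PND 40 pools were tight and did not overlap, while the PND 13 and PND 16 small pools spread on either side of them. Inhbb, the beta B subunit of inhibin B and activin B, was at 65.4, 1.02 and 79.1 CPM at PND 13, at 2.58, 155 and 7.12 in PND 16 small, at 9.04, 4.18 and 6.77 in PND 16 large and at 8.92, 13.8 and 11.4 at PND 40. Its highest pool, PND 16 small replicate 2, exceeded replicate 1 of its cohort 60.2-fold, and the PND 16 large and PND 40 pools overlapped.

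Inhba, the beta A subunit, had a higher mean at PND 40 than in PND 16 large. The mean of Inhbb was also higher there (11.4 against 6.66 CPM), with overlap, and that of Inha was lower. Inhba was at 6.93, 1.29 and 12.1 CPM at PND 13, at 3.30, 26.0 and 3.91 in PND 16 small, at 1.15, 1.07 and 2.03 in PND 16 large and at 4.46, 4.30 and 4.01 at PND 40. Every PND 40 pool lay above every PND 16 large pool, and every PND 16 small pool lay above every PND 16 large pool.

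Amh, which encodes anti-Müllerian hormone, was at 33.5, 1.02 and 30.3 CPM at PND 13, at 0.389, 32.0 and 9.02 in PND 16 small, at 2.82, 10.1 and 4.30 in PND 16 large and at 3.69, 6.45 and 4.23 at PND 40. PND 16 small held both its lowest pool, with 8 counts, and its second-highest, with 675 counts. The cohorts all overlapped. Nppc, the precursor of C-type natriuretic peptide, was near the limit of the depth, with 2 to 25 counts and 0.0735 to 1.19 CPM in a pool. Its highest values were those of PND 16 small replicates 2 (1.19 CPM) and 3 (0.712 CPM), and no cohorts were separated.

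Kitl, which encodes KIT ligand, did not share the order of these genes. It was at 33.7, 20.8 and 36.7 CPM at PND 13, at 30.3, 21.3 and 53.6 in PND 16 small, at 19.9, 16.8 and 24.6 in PND 16 large and at 12.1, 15.0 and 10.8 at PND 40. PND 16 small replicate 2, the pool with the most Inhba and Inhbb, was the lowest of its cohort for Kitl. All PND 40 pools were below all other pools, and the remaining cohorts overlapped. Its receptor Kit, an oocyte gene, stayed between 787 and 932 CPM.

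Of the receptors, Fshr, the FSH receptor of granulosa cells, was at 4.25, 0.977 and 2.50 CPM at PND 13, at 1.36, 1.80 and 1.36 in PND 16 small, at 1.19, 1.18 and 1.35 in PND 16 large and at 0.386, 0.478 and 0.735 at PND 40. Raw counts behind these values were low, from 9 to 89 per pool. All PND 40 pools lay below the rest, and PND 13 replicate 2 lay below the PND 16 pools. Npr2, the guanylyl cyclase that binds C-type natriuretic peptide, was at 5.21, 0.156 and 7.37 CPM at PND 13, at 0.437, 3.56 and 0.652 in PND 16 small, at 1.27, 1.74 and 0.796 in PND 16 large and at 1.37, 1.99 and 0.845 at PND 40. PND 13 held the highest and the lowest of its 12 values, the lowest resting on 4 counts.

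Foxl2, a transcription factor that maintains granulosa cell identity, was at 18.6, 0.391 and 20.0 CPM at PND 13, at 1.02, 10.8 and 2.13 in PND 16 small, at 2.25, 2.60 and 1.99 in PND 16 large and at 1.84, 3.11 and 1.73 at PND 40. It again had its extremes at PND 13, while the PND 16 large and PND 40 values overlapped. Cyp19a1, the aromatase that makes oestrogen from androgen, was the steadiest member. It was at 21.4, 12.7 and 14.5 CPM at PND 13, at 14.7, 22.6 and 19.2 in PND 16 small, at 23.2, 20.3 and 24.3 in PND 16 large and at 15.8, 14.9 and 17.0 at PND 40. Its PND 40 values were below its PND 16 large values, and it overlapped in all other pairs of cohorts.

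The spread between pools of a cohort was measured as the coefficient of variation (CV). The median CV of the 10 members was 81.3% at PND 13, 114% in PND 16 small, 27.8% in PND 16 large and 26.0% at PND 40, and the median over the 13943 genes tested was 14.4%, 19.6%, 10.5% and 10.2%. Counting alone would give Inhbb a CV of 3.00% at PND 13 and 2.95% in PND 16 small, where the observed CV was 86.0% and 158%. For Nppc, by contrast, counting alone would give 27.7% to 39.7%, and the observed CV was 54.8% to 82.1%. Inha in PND 16 large had a CV of 2.60%, below the 4.45% of counting alone.

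Over all cohorts the biological CV fitted by edgeR was 1.17 for Inhbb, 1.06 for Amh and 1.03 for Inha, 0.890 for Foxl2, 0.826 for Npr2, 0.701 for Inhba and 0.672 for Nppc. It was 0.414 for Fshr, 0.273 for Kitl and 0.186 for Cyp19a1, against a median of 0.189 over all genes tested. Within PND 13, replicates 1 and 3 exceeded replicate 2 by 33.0-fold and 29.8-fold for Amh, 41.4-fold and 61.1-fold for Inha, 64.4-fold and 77.8-fold for Inhbb and 47.5-fold and 51.2-fold for Foxl2. The same ratios were 1.62 and 1.77 for Kitl, 1.69 and 1.14 for Cyp19a1 and 0.826 and 0.989 for the oocyte gene Zp3.

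**Figure D3:**
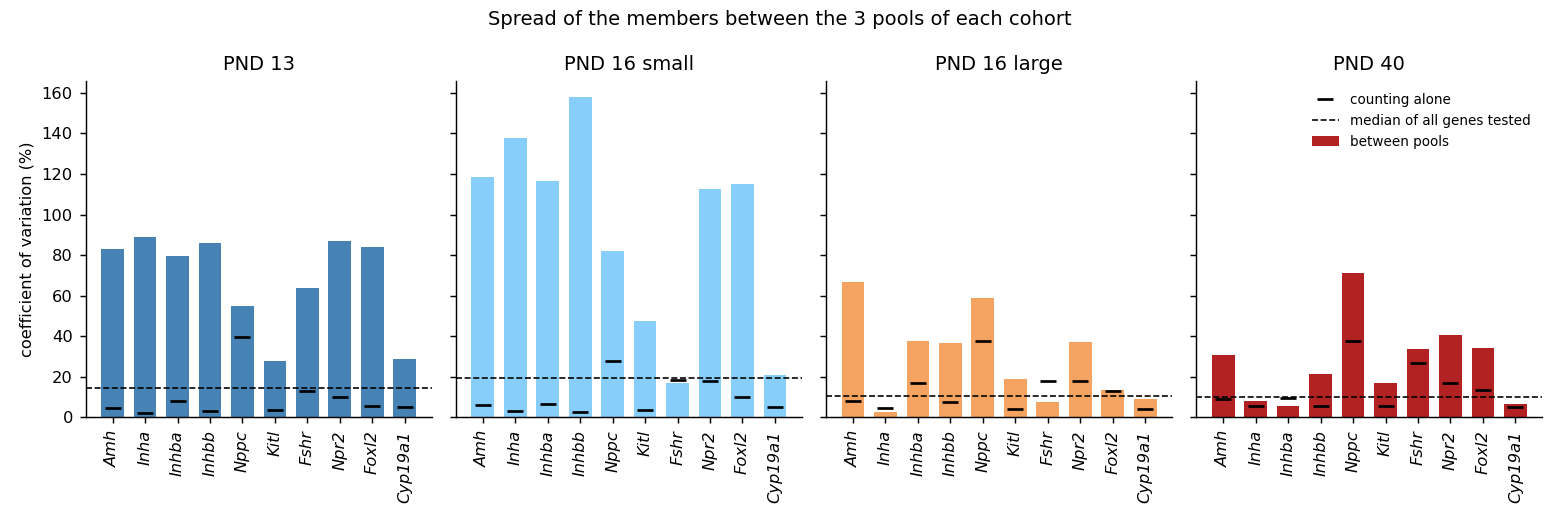
Coefficient of variation (%) of each member between the 3 pools of each cohort (bars), with the value that counting alone would give (black marks) and the median of all genes tested (dashed line). Bars of Amh, Inha, Inhba, Inhbb, Npr2 and Foxl2 stand near or above 80% at PND 13 and above 100% in PND 16 small, whereas Kitl and Cyp19a1 stay below 50% in every cohort.

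The comparisons between cohorts asked which transcripts changed as the oocyte became competent and as the mouse matured. A gene was called when the adjusted p of edgeR's quasi-likelihood test was at most 0.05 and the change at least 1.5-fold. For PND 16 small vs. PND 13, none of the 10 members was called by edgeR, by DESeq2 or by limma, where 0.373% of all genes tested were called by edgeR. None had an unadjusted p under 0.05 either, a level that 19.2% of genes tested reached. The pools of these cohorts did not separate for any member (18.1% of genes tested did).

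Between PND 40 and PND 13, Fshr and Kitl were lower at PND 40, 2 of 10 members called, against 18.9% of all genes tested and 12.6% in that direction. Fshr fell by 2.25 ± 0.52 (log2 fold change ± SE, n = 3 pools per cohort, edgeR adjusted p = 0.00492) and Kitl by 1.27 ± 0.32 (edgeR adjusted p = 0.0107). They were also the members whose pools did not overlap, in a comparison where 50.8% of all genes tested did not. Inha, Foxl2, Amh and Inhbb had log2 changes of -2.74, -2.54, -2.17 and -2.09, and with SEs of 1.17 to 1.59 none passed the test (edgeR adjusted p from 0.128 to 0.353). Cyp19a1 differed by -0.03 ± 0.20. Without PND 13 replicate 2, the pool with the lowest summed member level, Foxl2 (-3.14, edgeR adjusted p = 0.0108) and Npr2 (-2.19, edgeR adjusted p = 0.0305) were called lower too. Leaving out that pool raises the PND 13 means of both genes, so these added calls are no test of them.

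Fshr and Kitl were again the called members for PND 40 vs. PND 16 small, 2 of 10, where 17.2% of all genes tested were called. Fshr fell by 1.49 ± 0.52 (edgeR adjusted p = 0.0426) and Kitl by 1.47 ± 0.32 (edgeR adjusted p = 0.00556). Both had no overlap between these cohorts (43.9% of genes tested), and 10.3% of genes tested were called lower. Leaving out any 1 pool other than PND 13 replicate 1 or 2 ended the call of Fshr (10 of 12 such fits, edgeR adjusted p up to 0.140, log2 change -1.79 to -1.30), while Kitl was called in all 12.

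For competent vs. non-competent oocytes, Fshr fell by 1.20 ± 0.42 (edgeR adjusted p = 0.0432) and Kitl by 0.98 ± 0.25 (edgeR adjusted p = 0.00854, n = 6 pools per group), so that 2 of 10 members were called, where 15.0% of all genes tested were called in either direction and 11.2% of all genes tested were called lower in competent oocytes. Fshr lost its call without PND 13 replicate 1 or 3, PND 16 small replicate 2, PND 16 large replicate 1 or any PND 40 pool (log2 change -1.31 to -0.85), and Kitl kept its call without any 1 pool. In all, 6 members, each lower in competent oocytes, had an unadjusted p under 0.05, as did 42.1% of genes tested. Inhbb, Inha, Foxl2 and Inhba, with log2 changes of -2.52, -2.03, -1.97 and -1.65, had adjusted p-values of 0.0697 to 0.109 in edgeR and were called by DESeq2. They were called in edgeR without PND 13 replicate 2 (-2.79, -2.29, -2.24 and -1.89), and without PND 16 small replicate 1 so were Amh (-2.01) and Foxl2 (-2.20). These 2 pools had the lowest summed member levels of their cohorts. The added calls therefore depend on the pool left out and are no test of the members. The shares of all genes called by DESeq2 and in these fits are not given here.

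The remaining comparisons gave no called member in edgeR. For PND 16 large vs. PND 13, where 13.3% of genes tested were called, Inhba (log2 change -2.25) and Cyp19a1 (0.48) had an unadjusted p under 0.05 (37.6% of genes tested). Without PND 13 replicate 2, Inhba, Fshr, Foxl2 and Npr2 were called lower (-2.76, -1.45, -3.09 and -2.33), without PND 16 small replicate 2 Inhba alone was (-2.27), and without PND 13 replicate 1 Cyp19a1 was called higher (0.74). PND 13 replicate 2 was the lowest PND 13 pool for Inhba, Fshr, Foxl2 and Npr2, and replicate 1 the highest for Cyp19a1. The calls without either pool therefore depend on the pool left out and are no test. DESeq2 called 1 member and limma 0, and no member's pools separated (45.5% of genes tested). For PND 16 large vs. PND 16 small (6.19% called), Inhba (-2.97) and Kitl (-0.78) had an unadjusted p under 0.05 (28.2% of genes tested) and were the members that DESeq2 called, while limma called 0. Inhba was called without PND 13 replicate 2 (-2.96) and Kitl without PND 16 small replicate 2 (-1.03), the lowest pool of that cohort for Kitl. The pools of Inhba and Fshr did not overlap there (31.5% of genes tested). For PND 40 vs. PND 16 large (3.66% called), Fshr (-1.21) and Cyp19a1 (-0.51) had an unadjusted p under 0.05 (22.4% of genes tested), and DESeq2 and limma called 0.

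Between PND 40 and PND 16 large the pools of 5 of 10 members did not overlap, Inhba being higher at PND 40 and Inha, Fshr, Kitl and Cyp19a1 lower, a share near the 39.3% of all genes tested that did not overlap there. The spread used in the test came from all 4 cohorts. In a fit of only the pools of these 2 cohorts, 3 of the 9 members then tested were called. Inhba was higher by 1.58 (edgeR adjusted p = 0.00337), Inha lower by 0.74 (edgeR adjusted p = 0.00114) and Kitl lower by 0.70 on the log2 scale (edgeR adjusted p = 0.0125). The share of all genes called in that fit is not given here, so nothing is read from the count.

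All comparisons that hold PND 13 or PND 16 small were repeated with the 3 pools of high follicle cell transcripts left out together, an alternative chosen after the values were seen. PND 13 was then represented by 1 pool, whose spread was assumed to be that of the other cohorts. These pools were picked for their high member levels, and the pool of PND 13 that remained had the lowest summed member level of all 12, so the directions and counts that follow were set by that choice and are given as a description, with no test of the members. For PND 40 vs. PND 13 the log2 change was then 3.48 ± 0.69 for Inhbb, 3.12 ± 0.91 for Npr2, 2.50 ± 0.67 for Foxl2, 2.37 ± 0.63 for Inha, 1.72 ± 0.48 for Inhba and 2.23 ± 1.59 for Amh. Members above 0 numbered 7 of 10, against 1 with all pools. The call criterion was met by 5 members and by 10.1% of the 14859 genes then tested, from which nothing is read. Fshr and Kitl, at -0.86 and -0.72, no longer met it.

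In PND 16 large vs. PND 13 without these pools, 8 of 10 members were above 0, against 2 with all pools, and Inha (3.11), Inhbb (2.71), Foxl2 (2.53) and Cyp19a1 (0.84) met the call criterion, as did 7.16% of genes tested. In PND 16 small vs. PND 13 all 10 were above 0, against 5, with a median of 1.62, and 0 members met it (0.114% of genes tested). In PND 16 large vs. PND 16 small the members above 0 went from 1 to 6, while Inhba (-1.34) and Kitl (-1.03) met the criterion as lower (7.97% of genes tested). In PND 40 vs. PND 16 small they went from 0 to 6, while Kitl stayed lower at -1.72 ± 0.25 and alone met it (17.2% of genes tested). In competent vs. non-competent oocytes they went from 1 to 7, with Npr2 at 1.71 ± 0.53 and Kitl at -1.07 ± 0.30 meeting it (10.7% of genes tested) and Fshr at -0.46. None of the pools left out belongs to PND 40 or PND 16 large, and between these the median of the members stayed at -0.15, while with the spread fitted without those pools Inhba met the criterion at 1.58 ± 0.31 (3.98% of genes tested).

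**Figure D4:**
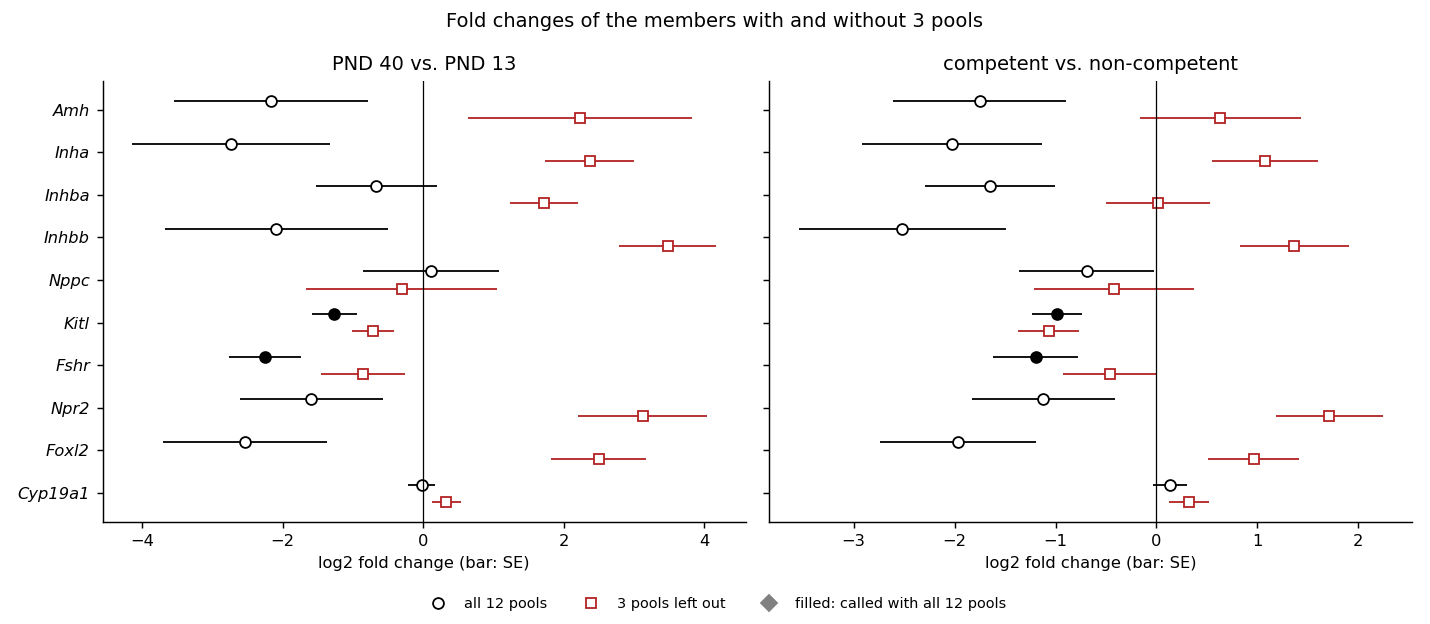
Log2 fold changes (bars, SE) of the members for PND 40 vs. PND 13 and for competent vs. non-competent oocytes, fitted with all 12 pools (circles) and with PND 13 replicates 1 and 3 and PND 16 small replicate 2 left out (squares), filled where called with all 12 pools. For PND 40 vs. PND 13, Inhbb moves from -2.09 to 3.48 and Inha from -2.74 to 2.37, whereas Kitl stays below 0 in all 4 fits.

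Ratios of counts within a pool do not depend on the scaling between pools. The ratio of Inhba to Inha was 0.391, 0.325 and 0.343 at PND 40 and 0.0568, 0.0514 and 0.103 in PND 16 large, a 5.25-fold difference of the geometric means with no overlap. The ratio of Inhbb to Inha was 0.782, 1.04 and 0.978 at PND 40 and 0.448, 0.202 and 0.344 in PND 16 large, a 2.95-fold difference. The ratio of Foxl2 to Inha, at 0.162, 0.235 and 0.148 against 0.112, 0.126 and 0.101, differed 1.58-fold. Each of these had p = 0.1 in a two-sided exact permutation test, the smallest that 3 against 3 pools allow, and the adjusted p over 60 such comparisons was 0.6. In all, 10 of the 60 showed no overlap.

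The pools of high follicle cell transcripts did not hold the members in 1 fixed proportion. In PND 13 replicates 1 and 3 the ratio of Inhba to Inha was 0.0714 and 0.0843 and that of Inhbb to Inha 0.674 and 0.552, whereas PND 16 small replicate 2 had 0.199 and 1.19. The ratio of Kitl to Inha ran from 0.163 in PND 16 small replicate 2 to 8.87 in PND 13 replicate 2, a 54.2-fold range, against 2.84-fold for Foxl2 to Inha. Amh, Inha, Inhba, Inhbb, Foxl2 and Npr2 together made up 79.2%, 15.2% and 84.4% of the summed member CPM at PND 13 and between 41.3% and 58.2% in the PND 16 large and PND 40 pools.

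**Figure D5:**
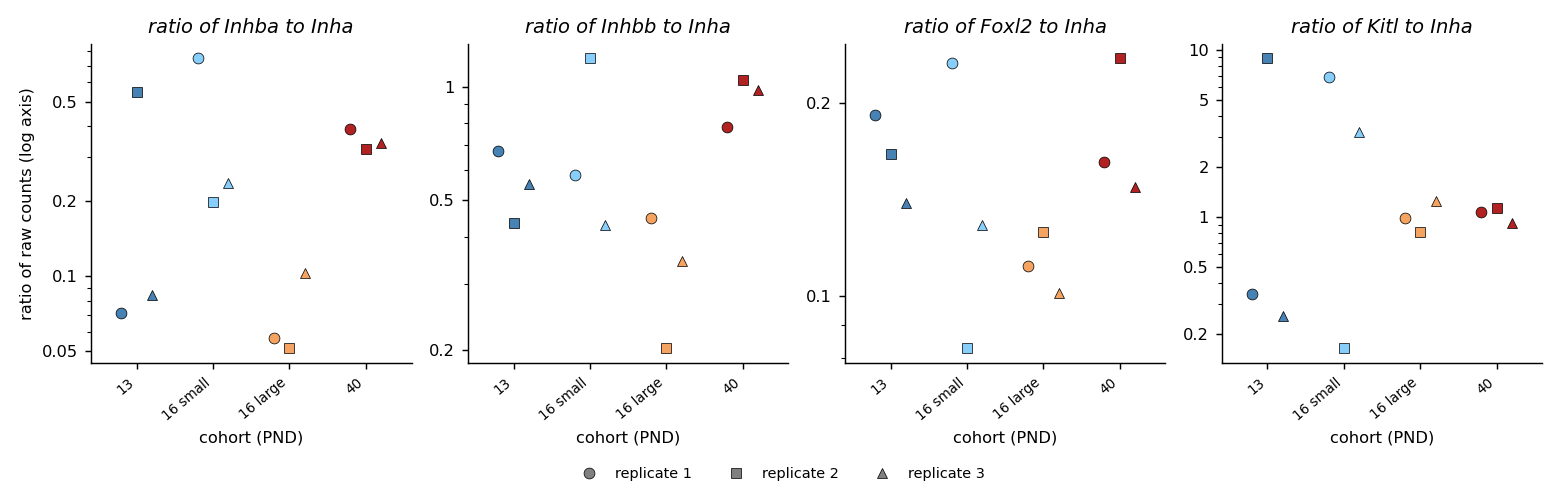
Ratio of the raw counts of Inhba, Inhbb, Foxl2 and Kitl to those of Inha (log axis) in each of the 12 pools by cohort, with symbols for the replicate number. The PND 40 pools lie above the PND 16 large pools for Inhba (0.325 to 0.391 against 0.0514 to 0.103), Inhbb and Foxl2, and the ratio of Kitl to Inha is widest among the PND 13 and PND 16 small pools.

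Other genes were ranked by how closely they followed each member over the 12 pools, as the root-mean-square difference of centred log2 CPM, where 0 would be an identical pattern. Inha was followed most closely by Obsl1 (0.316), which lies on the opposite strand 624 bases from Inha, and by C430049B03Rik (0.332), while Inha itself varied by 1.73 around its own mean. Amh was closest to Fst, the activin-binding follistatin (0.439), and to Erap1 (0.579). Foxl2 was closest to Mdfic (0.383) and to Amhr2, the receptor of anti-Müllerian hormone (0.419). Npr2 was closest to Angptl4 (0.309) and Soga1 (0.451).

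For the inhibin beta subunits the likeness was looser. Inhbb was nearest to Scd2 (0.739) and to Ihh, a hedgehog ligand of granulosa cells (0.761), and Inhba to Stra6 (0.614) and Ralb (0.713). Fshr was nearest to Abhd8 (0.295), Kitl to Impact (0.225) and Sez6l2 (0.233), and Cyp19a1 to Tll1 (0.130) and Zfp704 (0.152). Among the 9 members so compared, all but Nppc, the closest pair was Foxl2 and Npr2 (0.433) and the farthest Inhbb and Kitl (1.99). These values describe 12 pools that share their cohorts and their depth.

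Of 26 receptors, binding proteins and downstream genes of the members' pathways, 24 were tested. In competent vs. non-competent oocytes 1 was called higher and 2 lower, with a median log2 change of 0.07, against a median of -1.42 for the members and -0.00458 for all genes tested. Npr3, the clearance receptor for natriuretic peptides, was higher by 2.81 ± 0.87 (edgeR adjusted p = 0.0241), at 0 to 0.0391 CPM at PND 13 and 0.478 to 0.955 CPM at PND 40. Smad5, a mediator of BMP and anti-Müllerian hormone signals, was lower by 0.71 ± 0.15 (edgeR adjusted p = 0.00237), and Acvr2a, an activin receptor, by 0.64 ± 0.09 (edgeR adjusted p = 0.000176). These 3 of 24 genes stand beside 15.0% of all genes tested. Npr3 was also called higher and Smad5 lower for PND 40 vs. PND 13. With the 3 pools left out, PND 13 was a single pool, and calls of these genes against it are not read. In competent oocytes 1 was then called higher and 1, Acvr2a (-0.72), lower, where 10.7% of all genes tested were called. Npr3 (1.80) and Smad5 (-0.57) kept their direction in this smaller set of pools and were not called.

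Of the 18 other granulosa cell genes, 1 was called higher and 4 lower in competent oocytes, where 15.0% of all genes tested were called and 11.2% lower, with a median log2 change of -1.47. Gatm (-3.11) and Vcan, a matrix proteoglycan (-2.73), were among those lower (edgeR adjusted p of 0.0212 and 0.0416), and Grb14, an adaptor that binds the insulin receptor, was higher by 1.60 (edgeR adjusted p = 0.0244). Without the 3 pools the median was 0.64, and 3 of the 17 genes then tested were called higher, Grb14 among them (2.61), and 0 lower (10.7% of all genes tested were called), with Gatm at -1.26. Of the 18 genes, 11 had their 3 highest values in the pools left out. The change of the median and the loss of the lower calls therefore depend on that choice and are no test of these genes. For PND 40 vs. PND 13, Esr2, the oestrogen receptor beta, was called higher (0.75, and 0.73 without the 3 pools) and Gatm lower (-3.65, and -1.08 without them). Gatm was at 3.15 and 3.48 CPM in the PND 13 pools left out and at 0.391 CPM in the 1 kept. Of 5 cumulus genes tested, Ptgs2, a prostaglandin synthase, was called lower in competent oocytes (-1.56) and for PND 40 vs. PND 13 (-2.39). Without the 3 pools its log2 changes were -1.92 and -3.47. The only PND 13 pool then left held 5.35 CPM of Ptgs2, against 0.860 and 1.31 CPM in the PND 13 pools left out. The larger changes without the 3 pools therefore depend on that pool and are no test of Ptgs2. Of 4 genes of steroid synthesis, Hsd3b1 was called lower in competent oocytes (-3.19), and without the 3 pools, which held 28.5 to 50.1 CPM of it, it was at 0.42 and not called. Cyp11a1, the side-chain cleavage enzyme, was called higher for PND 40 vs. PND 13 (0.96). It was at 2.91, 2.93 and 2.54 CPM at PND 13 and at 5.06 to 5.79 CPM at PND 40. Without the 3 pools, which leaves 1 PND 13 pool, its log2 change was 0.89.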

How the data were processed

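RNA-Seq data of 12 pools of mouse oocytes were used, and cohorts and replicate numbers were taken from the sample labels. The authors deposited raw counts per gene, without normalization, and log2 values, which are the log2 of the counts divided by a size factor of the pool plus 1. Per the paper's methods, ribosomal RNA was depleted, libraries kept the strand, and reads of a HiSeq were processed on the Rosalind platform. The submitters' processing notes name FastQC, STAR, HTSeq, DESeq2, DESeq, HOMER and mm10, with versions not given in the sources used here. 

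Counts were analysed in R 4.3.3 with edgeR 4.0.16: filterByExpr (minimum count 10) kept 13943 genes, TMM scaled the pools (factors 0.955 to 1.07), and a robust quasi-likelihood model of the 4 cohorts gave 6 pairwise comparisons. A second model with the same genes had 2 groups, competent and non-competent. p-values were adjusted by Benjamini-Hochberg over all genes tested, a called gene had an adjusted p of at most 0.05 and a 1.5-fold change, and SEs are the log2 fold change over the square root of F. DESeq2 1.42.0 and limma 3.58.1 (on the deposited log2 values), other scalings and filters, no fold criterion, the replicate number as a block and leaving out pools were alternatives. Descriptions were computed in Python 3.11.15 with numpy 2.4.6 and pandas 2.3.3, and figures with matplotlib 3.10.9. The fit was tested on simulated data, where calls at 4-fold were mostly recovered and those at 2-fold mostly not. The spread set in those data is not given here. Recovery at the biological CV of each member, from 0.186 (Cyp19a1) to 1.17 (Inhbb), was not tested. Reads had no molecular identifiers, so counting error is a lower limit.

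All 10 members are named, with the 2 genes nearest in pattern to each member of at least 1 CPM, and from the partner, granulosa, cumulus and steroid lists at most 3 called genes per direction in PND 40 vs. PND 13 and in the comparison by competence; some genes that this rule or a list would name are not reported here. The members and lists were chosen with earlier results of these data known. Same-numbered pools did not deviate together (correlations from -0.442 to 0.0753), so replicate numbers were not treated as pairs.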

Additional observations from a re-analysis of the deposited data

How the results depend on the processing

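The calls of members rested on few pools and, for Fshr, on few counts. In PND 40 vs. PND 13, Fshr and Kitl were called in each of the 12 fits that left out 1 pool, and in PND 40 vs. PND 16 small Kitl was called under every alternative. Scaling by RLE factors, by the upper quartile or by total counts changed no member count by more than 1.5 times, and the summed CPM of the members per cohort moved by less than the spread between pools when CPM came from total counts alone (236, 189, 80.4 and 65.3 CPM). Depth limits Nppc above all, with at most 25 counts per pool.

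Counts of called members moved as follows. DESeq2 called 1 member in PND 16 large vs. PND 13, 2 in PND 16 large vs. PND 16 small and 6 in competent vs. non-competent oocytes, against 0, 0 and 2 in edgeR. Testing all genes with a count gave 1 in PND 40 vs. PND 16 small and 1 in competent vs. non-competent oocytes, and limma with a pseudocount of 0.1 gave 1 in the latter. Fitting only the pools compared gave 1 in PND 40 vs. PND 16 small and 3 in PND 40 vs. PND 16 large. The shares of all genes called by DESeq2, or in fits of only the pools compared, are not given here. Fits without 1 of the pools called 0 to 4 members in PND 16 large vs. PND 13, 2 to 4 in PND 40 vs. PND 13, 0 to 1 in PND 16 large vs. PND 16 small, 1 to 2 in PND 40 vs. PND 16 small and 1 to 6 in competent vs. non-competent oocytes. Among the changes called in any fit, that of Inhba in PND 40 vs. PND 13 alone turned here, from -1.19 to 0.0615, the latter without PND 13 replicate 3.

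With the replicate number as a block, 1 member instead of 2 was called in PND 40 vs. PND 16 small and 1 instead of 2 in competent vs. non-competent oocytes, since Fshr passed the threshold no longer (edgeR adjusted p = 0.0604 and 0.0754). Same-numbered pools share only a number, and the replicate block changed no other call of a member.

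Leaving out PND 13 replicates 1 and 3 and PND 16 small replicate 2 together, chosen after seeing the data, gave 4 called members in PND 16 large vs. PND 13, 5 in PND 40 vs. PND 13, 2 in PND 16 large vs. PND 16 small, 1 in PND 40 vs. PND 16 small and 1 in PND 40 vs. PND 16 large. The pools were picked for high member levels, so these counts are no test. Members with a log2 change above 0 went from 2 to 8 in PND 16 large vs. PND 13, from 1 to 7 in PND 40 vs. PND 13 and from 1 to 7 in competent vs. non-competent oocytes. In PND 16 large vs. PND 13 the changes that turned were those of Amh (2.49), Inha (3.11), Inhba (0.14), Inhbb (2.71), Fshr (0.35), Foxl2 (2.53), Npr2 (2.98) and, downward, Nppc (-0.31). In PND 40 vs. PND 13 they were those of Amh (2.23), Inha (2.37), Inhba (1.72), Inhbb (3.48), Foxl2 (2.50), Npr2 (3.12), Cyp19a1 (0.33) and, downward, Nppc (-0.31), and in competent vs. non-competent oocytes those of Amh (0.63), Inha (1.08), Inhba (0.0144), Inhbb (1.37), Foxl2 (0.96) and Npr2 (1.71). The cause was not tested.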
